A study of Mus musculus with 12 samples.

Results

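The libraries titled Ab_IR were set against those titled L_IR. These are 6 of the 12 RNA-seq libraries of the series, 3 of each, chosen by their titles alone. All 6 come from wild-type mice that received ionizing radiation (IR), with the bone marrow cells collected 3 days later and sorted as hematopoietic stem cells (HSCs). The study's mice were C57BL/6, the radiation was a single sublethal dose to the whole body, and the HSC gate was lineage-negative, Sca-1+, c-Kit+, Flt3- and CD34-. The titles set Ab or L before IR, and the labels and methods spell out neither, so both stand here as given. The other 6 libraries are 3 of irradiated mice (IR) and 3 of unirradiated mice (Ctrl), and their levels are given only beside the contrast. The study asks how HSCs are maintained after radiation injury. No source states how many mice a library holds or that the libraries of a group came from separate mice, so the p-values measure the spread between libraries, which may be technical.

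HSCs sit at the root of the blood lineages. Their descendants switch on lineage programs in order. Neutrophil precursors make primary granule enzymes first and secondary granule proteins later, under the C/EBP family of transcription factors. Eosinophil precursors fill granules with basic proteins and ribonucleases, erythroid precursors make globin and heme under GATA1, and plasma cells are given over to immunoglobulin secretion. In bulk RNA, fewer cells of a type and less RNA per cell cannot be told apart.

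The values deposited for each gene were read as FPKM (fragments scaled to exon length and to library size), which hold no counts, so the depth of each library is unknown. They summed to 393117 to 405123 in Ab_IR and 397049 to 397428 in L_IR, and 11954 to 12167 genes stood at 1 FPKM or more. Pearson's r of log2(FPKM + 1) across genes, which are not independent replicates, was 0.990 to 0.993 within Ab_IR, 0.993 to 0.994 within L_IR and 0.978 to 0.984 between them. The HSC label was borne out in part, with 23 of 25 listed HSC and progenitor surface markers and 23 of 33 transcription factors reaching the expression filter of 1 FPKM in 3 or more of the 6 libraries. Kit, the stem cell factor receptor, stood at 17.4 to 19.1 and 17.8 to 18 FPKM in Ab_IR and L_IR, and Ly6a, which encodes Sca-1, at 35.7 to 41.2 and 45.4 to 45.8 FPKM. The defining HSC genes Hoxb5, Mecom, Slamf1 and Tek, however, were all under 1 FPKM in every one of the 6 libraries, with Slamf1 the highest at up to 0.88. Flt3 at 5.6 to 7.57 FPKM and Cd34 at 15.6 to 18.3 FPKM over the 6 libraries were present although the gate excludes both proteins. Set against these, the plasma cell gene Igkc reached 24973 FPKM and the eosinophil gene Prg2 4229.7 FPKM. The cells are therefore called cells sorted as HSCs below. Nppa, a heart muscle transcript at 51.2 to 63.9 FPKM in the IR libraries and Ctrl replicates 2 and 3, was at most 0.26 FPKM in all 6 libraries of the contrast.

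Genes of mature blood lineages separated Ab_IR from L_IR. Neutrophil secondary granule genes, eosinophil granule genes, globin genes and the carbonic anhydrase gene Car1 were higher in Ab_IR, and those called among them differed 2.03- to 5.09-fold in FPKM. Immunoglobulin genes made up 21.9% to 22.6% of the summed FPKM in L_IR and 13.5% to 14.3% in Ab_IR, and plasma cell and T or NK cell genes were lower in Ab_IR with them. The levels of Kit and of the myeloperoxidase gene Mpo overlapped between the groups. Markers of other blood cells thus differed between the groups in a sort for HSCs, and their part in the differences of the other genes was not tested. In the limma fit to log2(FPKM + 1), 65 of the 12194 genes tested were called, which is 0.533%. To be called, a gene had to differ by more than 1 on this log2 scale in either direction at a Benjamini-Hochberg adjusted p under 0.05. Of these, 36 were higher in Ab_IR (0.295%) and 29 lower (0.238%). None of the 65 overlapped between the groups. The adjusted p alone was passed by 38% of all genes, 2218 higher (18.2%) and 2410 lower (19.8%), and the libraries of the groups did not overlap for 25.2% of genes in the higher and 26.7% in the lower direction. With all 12 libraries in 1 fit, 1026 genes were higher and 1439 lower by the adjusted p. Passing the adjusted p alone is thus common in this contrast and depends on the fit, and below a gene is described as higher or lower where it passed it and as called where it also passed the fold threshold. The calls were unlike in kind: 24 of the 36 higher calls had a mean of at least 10 FPKM and a gene name other than a predicted one, while 16 of the 29 lower calls were immunoglobulin genes, 7 were predicted genes and 3 were microRNA genes. Of the lower calls 6, 5 predicted genes and 1 immunoglobulin gene, were under 1 FPKM in every Ab_IR library and reached the expression filter through L_IR alone, which was so for none of the higher calls.

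**Figure D1:**
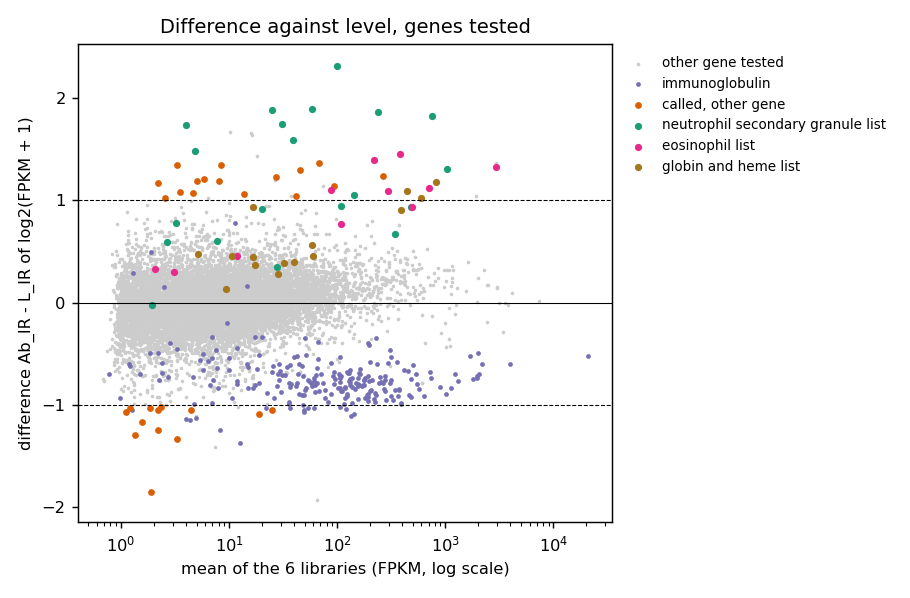
Each dot is 1 of the 12194 genes tested, with its mean FPKM over the 6 libraries on a log axis and its difference Ab_IR minus L_IR in log2(FPKM + 1), and dashed lines at differences of 1 and -1. Any gene outside the plotted range, such as Rps18-ps6 (5.95), is not drawn. The secondary granule, eosinophil and globin lists lie above 0 apart from 1 secondary granule gene at -0.03, and the immunoglobulin genes form a band whose median is -0.76.

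Differences are on the log2(FPKM + 1) scale, which understates the change of genes with low values. The median over all genes tested was 0.0063. Against it, the medians were 1.18 for 20 neutrophil secondary granule and maturation genes, 1.09 for 11 eosinophil genes and 0.46 for 15 globin and heme synthesis genes. At the other end stood 236 immunoglobulin genes at -0.76, 18 T and NK cell genes at -0.46 and 20 plasma cell genes at -0.44. Rescaling the libraries without immunoglobulin genes moved the median of all genes to -0.11. Of 11976 genes tested there, 782 were higher and 4062 lower by the adjusted p, so that 16.1% rather than 47.9% of those passing were higher in Ab_IR. Counts given below for lists on that scale are to be read beside this shift of all genes. On that scale the secondary granule, eosinophil and globin medians were still 1.03, 0.95 and 0.33.

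**Figure D2:**
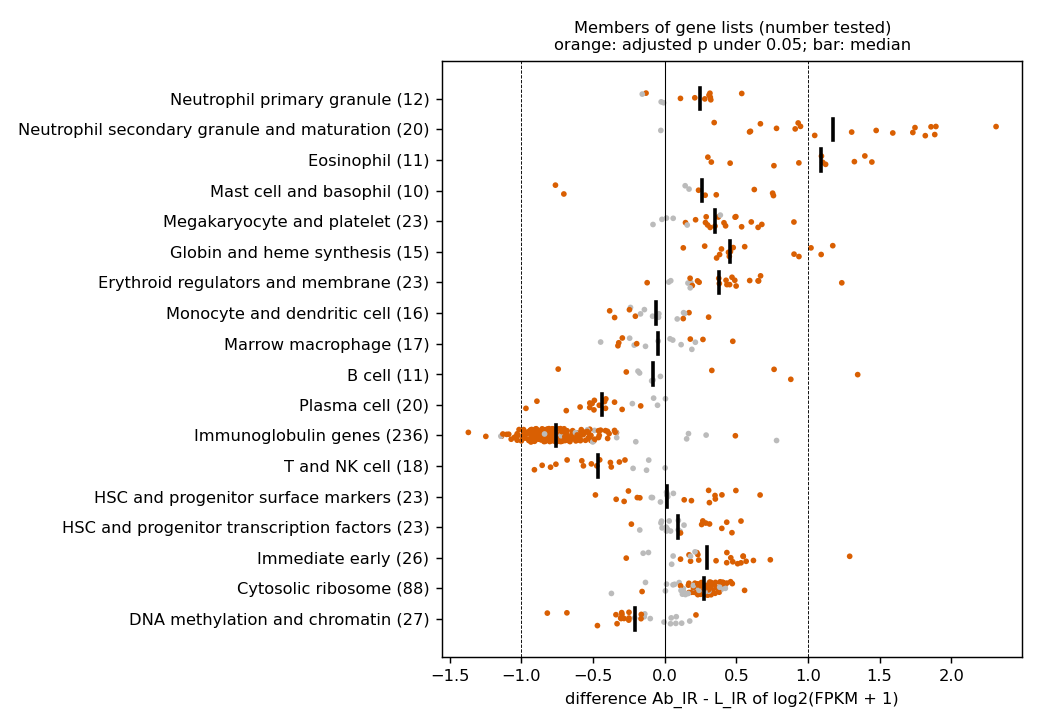
Each dot is a tested gene of the list named at the left, with the number tested in parentheses, placed at its difference Ab_IR minus L_IR in log2(FPKM + 1). Orange dots passed an adjusted p of 0.05 and bars are list medians, which run from 1.18 for the secondary granule genes to -0.76 for the immunoglobulin genes.

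The stretches of DNA before the start sites of 6 of these genes are shown because the genes moved together in 3 lineage groups. They are Ltf (lactoferrin), Lcn2 (lipocalin 2) and Chil3 (a chitinase-like protein) of the neutrophil group, Ear1 (an eosinophil ribonuclease), and Hba-a1 and Hbb-bs (alpha and beta globin). Each is the 250 bases before the start site in RefSeq on GRCm38.p6, written 5′ to 3′ on the strand of the gene. The regions are chr9:111019042-111019291, plus strand, for Ltf. For Lcn2 the region is chr2:32387740-32387989, minus strand, and for Chil3 it is chr3:106167565-106167814, minus strand. Ear1 has chr14:43819640-43819889, minus strand, Hba-a1 has chr11:32283422-32283671, plus strand, and Hbb-bs has chr7:103827929-103828178, minus strand. Capitals mark matches of the C/EBP motif TTNNGNAA or of the letters AGATAA, a form of the motif of GATA factors, each on either strand. Other forms of the GATA motif were not searched. The letters tgataa, for example, stand unmarked in Hba-a1 and Chil3, so an unmarked or uncounted promoter may still hold a GATA site.
Ltf: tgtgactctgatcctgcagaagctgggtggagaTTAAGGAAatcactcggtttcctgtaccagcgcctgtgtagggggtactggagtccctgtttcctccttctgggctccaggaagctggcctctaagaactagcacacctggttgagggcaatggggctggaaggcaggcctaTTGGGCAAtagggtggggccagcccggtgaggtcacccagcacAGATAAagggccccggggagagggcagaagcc
Lcn2: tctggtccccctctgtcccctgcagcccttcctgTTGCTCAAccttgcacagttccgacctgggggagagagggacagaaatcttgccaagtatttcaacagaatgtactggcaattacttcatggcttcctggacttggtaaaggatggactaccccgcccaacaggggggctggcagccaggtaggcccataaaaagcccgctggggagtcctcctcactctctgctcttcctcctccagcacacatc
Chil3: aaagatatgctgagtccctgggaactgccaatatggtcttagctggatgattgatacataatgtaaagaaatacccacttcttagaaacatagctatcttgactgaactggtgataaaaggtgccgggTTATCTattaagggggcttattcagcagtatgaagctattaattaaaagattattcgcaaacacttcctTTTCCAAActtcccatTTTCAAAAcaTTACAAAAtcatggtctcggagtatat
Ear1: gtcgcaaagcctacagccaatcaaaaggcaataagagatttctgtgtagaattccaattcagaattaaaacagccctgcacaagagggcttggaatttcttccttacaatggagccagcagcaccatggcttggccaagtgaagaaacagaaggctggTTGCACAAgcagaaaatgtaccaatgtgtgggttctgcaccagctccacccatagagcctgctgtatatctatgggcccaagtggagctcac
Hba-a1: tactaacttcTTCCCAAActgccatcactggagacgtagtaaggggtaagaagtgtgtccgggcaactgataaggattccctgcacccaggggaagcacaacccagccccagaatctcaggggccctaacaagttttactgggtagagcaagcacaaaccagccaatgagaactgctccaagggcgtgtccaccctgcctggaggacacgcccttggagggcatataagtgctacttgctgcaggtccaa
Hbb-bs: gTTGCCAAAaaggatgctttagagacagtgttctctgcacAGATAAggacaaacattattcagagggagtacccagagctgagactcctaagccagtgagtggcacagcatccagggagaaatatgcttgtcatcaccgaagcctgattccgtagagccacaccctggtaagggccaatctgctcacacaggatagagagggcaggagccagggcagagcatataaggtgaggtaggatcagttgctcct

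Over 32851 RefSeq promoters of the same length, 36.8% held the C/EBP letters and 9.99% the GATA letters. Of the 36 genes called higher, 29 had a promoter in the table, with 31 promoters in all, and 22 of these (71.0%) held the C/EBP letters and 7 (22.6%) the GATA letters. Among 19 promoters of 18 secondary granule genes, 16 held the C/EBP letters, as did 7 of 9 eosinophil promoters and 7 of 14 promoters of globin and heme genes. The GATA letters stood in 3, 2 and 2 promoters of these lists, which is 15.8%, 22.2% and 14.3%. The PU.1 letters GAGGAA, on either strand, were held by 23.3% of all promoters, by 10 of the 19 secondary granule, 2 of the 9 eosinophil and 3 of the 14 globin and heme promoters, and by 7 of the 31 promoters of genes called higher. The CACCC letters CCACACCC stood in 3.2% of all promoters and in 2 of the 31. These matches are a description of letters, with no test, and no binding was measured.

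Neutrophil secondary granule genes differed most. All 20 listed genes were tested, 19 were higher in Ab_IR and 11 of these were called, and the summed FPKM of the list was 4827 to 5022 in Ab_IR against 1889 to 1980 in L_IR. Ltf (lactoferrin, an iron-binding granule protein; chromosome 9, 111019271 to 111042767, plus strand) stood at 165, 169 and 160.0 FPKM in Ab_IR and 33.2, 31.6 and 32.2 FPKM in L_IR. The lowest Ab_IR library was thus far above the highest L_IR library, and the means differed 5.09-fold (log2 difference 2.31, SE 0.0374, adjusted p 4.02e-07). Camp, the precursor of the antimicrobial peptide cathelicidin (chromosome 9, 109847379 to 109849617, minus strand), was at 376, 369 and 378 FPKM against 105, 103 and 100.2 FPKM (log2 difference 1.86, SE 0.0338, adjusted p 4.02e-07). Ngp, the neutrophilic granule protein, was at 1234, 1147 and 1146 FPKM against 333, 337 and 326 FPKM (log2 difference 1.82, SE 0.0419, adjusted p 1.34e-06). In both genes every Ab_IR library was above every L_IR library, with ratios of means of 3.65 and 3.54. Lcn2, which binds bacterial siderophores (chromosome 2, 32384633 to 32388252, minus strand), showed 93.9, 90.98 and 91.7 FPKM in Ab_IR and 23.9, 24.5 and 23.9 FPKM in L_IR (log2 difference 1.89, SE 0.0331, adjusted p 4.02e-07). For Chil3 the values were 40.4, 39.7 and 38.5 FPKM against 9.49, 10.6 and 9.86 FPKM (log2 difference 1.89, SE 0.0478, adjusted p 2.2e-06). The interferon-induced transmembrane gene Ifitm6 had 48.5, 47.2 and 49.2 FPKM against 13.7, 14.2 and 13.2 FPKM (1.75, adjusted p 1.34e-06). These 3 genes differed 3.83-, 3.96- and 3.53-fold with no overlap.

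Genes of late neutrophil maturation were higher as well. Cd177, a neutrophil surface glycoprotein, was at 59.5 ± 4.196 FPKM (SD, n = 3) in Ab_IR and 19.1 ± 1.03 in L_IR (difference 1.59, adjusted p 1.4e-05). The calprotectin subunits S100a9 and S100a8 differed by 1.30 and 0.93, with S100a9 at 1388, 1432 and 1582 FPKM against 599, 599 and 579 FPKM. S100a9 was called and S100a8 fell short of the fold threshold (adjusted p 1.86e-05 and 0.000363). The gelatinase gene Mmp9 (1.48, adjusted p 2.14e-05), the resistin-like gene Retnlg (1.05, adjusted p 1.98e-05) and the Gr-1 antigen gene Ly6g (1.73, adjusted p 0.000343) were called too. Mmp9 was at 7.63 and 2.1 FPKM and Retnlg at 194 and 93.2 FPKM in the means of Ab_IR and L_IR. Without immunoglobulin genes in the scaling Retnlg fell under the fold threshold (0.90). Ly6g had 7.79, 6.46 and 5.59 FPKM in Ab_IR and 1.73, 0.83 and 1.36 FPKM in L_IR, and Gr-1 is one of the lineage antigens the gate removes. Fpr1, a receptor for bacterial peptides, was the only member of the list that did not pass.

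Primary granule genes, which precede these in maturation, moved little. None of the 12 was called, 8 were higher and 1 lower, and their median was 0.24. The scaling without immunoglobulin genes gave 4 higher and 3 lower with a median of 0.10, and the median was 0.13 once the trend with exon length was removed. Mpo, myeloperoxidase, was at 3121, 3336 and 2959 FPKM in Ab_IR and 3173, 3046 and 3243 FPKM in L_IR, so the groups overlapped and the difference of -0.0081 did not pass (adjusted p 0.923, 95% interval -0.138 to 0.121). The neutrophil elastase gene Elane was higher by 0.32 (adjusted p 0.00322), and did not pass on the scale without immunoglobulin genes. The proteinase 3 gene Prtn3 was higher by 0.32 (adjusted p 0.00201) and the granule proteoglycan gene Srgn by 0.32 (adjusted p 0.00321). Cebpe, the C/EBP factor of the secondary granule stage, was at 86.3, 94.6 and 89.01 FPKM in Ab_IR and 62.2, 59.2 and 63.6 FPKM in L_IR. It was 1.46-fold higher (log2 difference 0.54, SE 0.0471, adjusted p 0.000266), the largest difference of this list and well under those of the secondary granule genes.

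**Figure D3:**
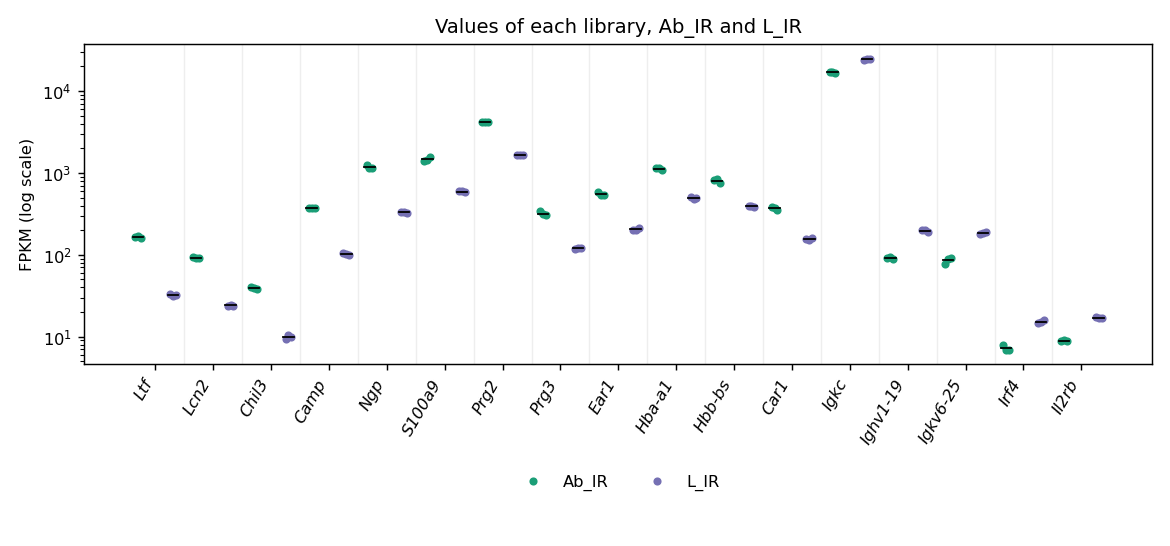
Dots are the FPKM of each of the 3 Ab_IR and 3 L_IR libraries on a log axis for 17 genes, and bars are group means. Ltf, Camp, Ngp, Prg2, Ear1 and the globins lie higher in all Ab_IR libraries, and Igkc, Ighv1-19, Irf4 and Il2rb lower, with no overlap in any of these genes.

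Eosinophil genes formed the second group. All 11 were higher in Ab_IR, 6 were called, and their summed FPKM was 7233 to 7402 in Ab_IR against 3087 to 3121 in L_IR. Prg2, the eosinophil major basic protein (chromosome 2, 84980461 to 84983632, plus strand), was among the most abundant messages of the sort at 4142, 4229.7 and 4156 FPKM in Ab_IR, against 1669, 1656 and 1676 FPKM in L_IR. It was 2.505-fold higher in Ab_IR with no overlap (log2 difference 1.32, SE 0.0358, adjusted p 2.98e-06). Its neighbour Prg3, a second basic granule protein, had 339, 312 and 307 FPKM against 117, 122 and 122 FPKM (log2 difference 1.40, SE 0.0462, adjusted p 9.92e-06). The eosinophil-associated ribonuclease gene Ear1 (chromosome 14, 43818765 to 43875517, minus strand) showed 593, 545 and 542 FPKM against 203, 199 and 212 FPKM (log2 difference 1.45, SE 0.0474, adjusted p 9.92e-06), and Ear2, Ear10 and Ear6 differed by 1.12, 1.10 and 1.09, as did the pseudogene Ear-ps9 by 1.37. These ribonucleases are near-identical copies whose reads may be shared, so the single values are uncertain while the group as a whole is higher. Without immunoglobulin genes in the scaling Ear2, Ear10 and Ear6 fell under the fold threshold (0.98, 0.96 and 0.95).

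The enzymes and receptors of eosinophils followed with smaller differences. The eosinophil peroxidase gene Epx was at 629, 678 and 618 FPKM against 337, 330.4 and 337 FPKM (log2 difference 0.94, SE 0.04395, adjusted p 2.14e-05), and the lipoxygenase gene Alox15 differed by 0.76 (adjusted p 5.73e-05). The receptor genes were low throughout: Siglecf had 13.2 to 14.6 FPKM in Ab_IR and 9.59 to 10.3 in L_IR (0.46, adjusted p 0.000625), and the interleukin 5 receptor gene Il5ra 2.25 to 2.54 against 1.51 to 1.87 FPKM (0.33, adjusted p 0.0116). Ccr3, the eotaxin receptor, passed narrowly at 0.30 (adjusted p 0.0441), and missed the threshold once the length trend was removed or immunoglobulin genes were left out of the scaling. In Ab_IR the granule genes called in this list stood at 110.4 to 4229.7 FPKM while these 3 receptor genes of the same lineage were at most 14.6 FPKM.

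Mast cell and basophil genes were more often higher. Of the 10 tested, 6 were higher, 2 lower and none called, with a median of 0.26. When immunoglobulin genes were left out of the scaling, 3 of 9 were higher and 2 lower. Mcpt8, a basophil protease, had 240.3, 233 and 238 FPKM in Ab_IR and 133, 146 and 139.9 FPKM in L_IR (log2 difference 0.76, SE 0.0429, adjusted p 4.3e-05). The basophil protease gene Prss34 was likewise 1.69-fold higher (0.75, adjusted p 6.53e-05), and the IgE receptor gene Fcer1a and the carboxypeptidase gene Cpa3 were higher by 0.63 and 0.36, though Cpa3 did not pass without immunoglobulin genes in the scaling. The mast cell chymase gene Cma1 was lower (difference -0.76, adjusted p 0.000742), at under 1.3 FPKM in every library and past the expression filter through the L_IR libraries alone, and so was Gzmb, a granzyme shared with cytotoxic lymphocytes (difference -0.70, adjusted p 0.00147).

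Globin and heme synthesis genes were all higher in Ab_IR. Each of the 15 tested passed the adjusted p and 3 were called, and the summed FPKM was 3277 to 3436 against 1673 to 1725. Hba-a1, an adult alpha globin gene (chromosome 11, 32283511 to 32284465, plus strand), had 1147, 1155 and 1077 FPKM in Ab_IR and 514, 486 and 496 FPKM in L_IR (log2 difference 1.17, SE 0.0435, adjusted p 1.36e-05). The second copy Hba-a2 differed by 1.09 and the beta globin genes Hbb-bs and Hbb-bt by 1.02 and 0.90. The members of each pair share reads, and the call of Hbb-bs was lost in 1 of the 6 fits that leave out a library, under quantile normalization, without immunoglobulin genes in the scaling and with the length trend taken out, its difference staying between 0.876 and 1.07. Hba-a2 also lost its call without immunoglobulin genes in the scaling (0.95), which left Hba-a1 (1.03) as the one globin call there. Alas2, which starts heme synthesis in erythroid cells, was at 22.5, 21.8 and 22.03 FPKM against 11.1, 10.7 and 11.5 FPKM (log2 difference 0.94, SE 0.0401, adjusted p 1.98e-05). Alad, the next enzyme, was 1.48-fold higher (0.56, adjusted p 0.000604), and the mitochondrial iron importer Slc25a37 1.32-fold (0.38, adjusted p 0.00161).

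Among 23 erythroid regulators and membrane genes, 17 were higher, 1 was lower and 1 was called, with a median of 0.38. The call was Car1, a carbonic anhydrase of early erythroid cells (chromosome 3, 14766216 to 14808368, minus strand), at 387, 369 and 354 FPKM in Ab_IR and 156, 153 and 159.9 FPKM in L_IR (log2 difference 1.24, SE 0.0428, adjusted p 1.13e-05). Gata1, the erythroid and megakaryocyte master regulator, was at 39.4, 42.1 and 40.6 FPKM against 26.1, 25.4 and 25.04 FPKM, a 1.59-fold difference without overlap (0.65, adjusted p 5.16e-05). The membrane gene Rhd (0.67) and the carbonic anhydrase gene Car2 (0.50) were higher by less than Car1 (adjusted p 0.000111 and 0.000309).

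Megakaryocyte and platelet genes were also higher, 17 of 23 tested with none lower and none called, at a median of 0.35 (11 higher and a median of 0.24 without immunoglobulin genes in the scaling). Ppbp, the platelet basic protein, had the largest difference of the list at 67.5, 63.9 and 66.98 FPKM in Ab_IR and 32.5, 34.8 and 37.7 FPKM in L_IR (log2 difference 0.90, SE 0.0573, adjusted p 6.72e-05). Pf4, platelet factor 4, was 1.46-fold higher (0.54, adjusted p 0.00193) and Itga2b, which encodes CD41, 1.35-fold (0.41, adjusted p 0.000619). The platelet receptor gene Treml1 (0.68) and the platelet tubulin gene Tubb1 (0.60) lay in the same range (adjusted p 0.000786 and 0.000625).

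Immunoglobulin genes were lower in Ab_IR nearly as a block. Of the 236 tested, 220 passed the adjusted p as lower and 1 as higher, and 16 were called, all lower. The kappa constant gene Igkc (chromosome 6, 70726435 to 70726966, plus strand), the gene with the highest value in every library, stood at 17305, 17008 and 16760.1 FPKM in Ab_IR and 24121, 24333 and 24973 FPKM in L_IR. Its L_IR mean was 1.44-fold the Ab_IR mean (log2 difference -0.52, SE 0.0457, adjusted p 0.000262). Igha, the IgA constant gene, differed by -0.52 and Ighg2b, an IgG constant gene, by -0.74 (adjusted p 0.000372 and 4.21e-05). The median was -0.85 for 102 heavy variable genes, -0.71 for 104 kappa variable genes, -0.58 for 3 lambda variable genes and -0.59 for 27 constant, joining and diversity genes, and the differences between these classes were not tested. Ighv1-19 had 90.7, 95.3 and 88.7 FPKM against 200.4, 198 and 189 FPKM (log2 difference -1.09, SE 0.0421, adjusted p 1.4e-05), and Igkv6-25 76.7, 89.1 and 91.6 FPKM against 181, 185 and 189.6 FPKM (-1.10, adjusted p 5.46e-05). Variable genes resemble each other closely enough to share reads, so single members are uncertain. After correction for gene length, 7 of the immunoglobulin genes were called in place of 16, and 212 were still lower.

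Plasma cell genes went the same way. Of 20 tested, a list that includes 4 immunoglobulin genes, 16 were lower, none higher and none called. Irf4, a transcription factor of plasma cell formation, was at 7.95, 6.92 and 6.94 FPKM in Ab_IR and 14.8, 14.9 and 15.8 FPKM in L_IR, just short of the fold threshold (log2 difference -0.97, SE 0.0592, adjusted p 5.46e-05). Prdm1, which encodes the plasma cell regulator BLIMP1, had 1.7, 1.48 and 1.55 FPKM against 3.76, 3.56 and 4.03 FPKM (-0.89, adjusted p 0.000101). The survival receptor gene Tnfrsf17, for BCMA, and the antibody joining chain gene Jchain differed by -0.69 and -0.42 (adjusted p 0.000245 and 0.000603), and the B cell coactivator gene Pou2af1 by -0.74 (adjusted p 0.000494). In all 5 genes each Ab_IR library lay under each L_IR library.

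B cell genes were mixed. Of the 11 tested, 4 were higher and 2 lower, with a median of -0.08, and without immunoglobulin genes in the scaling 3 were higher and 5 lower. Dntt, the terminal transferase of lymphoid progenitors (chromosome 19, 41029275 to 41059525, plus strand), was at 13.01, 12.5 and 12.3 FPKM in Ab_IR and 4.24, 4.2 and 4.61 FPKM in L_IR and was called higher (log2 difference 1.35, SE 0.0474, adjusted p 1.16e-05). The surrogate light chain genes Vpreb1 and Igll1 were higher at low levels, and both reached the expression filter through the Ab_IR libraries alone, so that they could be tested only because they are high there. Vpreb1 had 1.64, 1.8 and 1.91 FPKM against 0.59, 0.55 and 0.4 FPKM (0.88, adjusted p 0.00029), and Igll1 1.21, 1.49 and 1.56 FPKM against 0.37, 0.29 and 0.63 FPKM (0.76, adjusted p 0.00195). Cd79a, a chain of the B cell receptor complex, was lower (difference -0.27, adjusted p 0.0015), as was Pou2af1, given above with the plasma cell genes. The transcription factor gene Spib was the other higher one (0.33, adjusted p 0.0219), while Pax5, Ebf1, Rag1 and Rag2 did not reach the expression filter.

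T and NK cell genes were lower in Ab_IR, 14 of 18 tested with none higher, none called and a median of -0.46. Their summed FPKM was 113 to 129 in Ab_IR and 181 to 182 in L_IR. Il2rb, a receptor chain for interleukins 2 and 15, was at 8.79, 9.17 and 8.86 FPKM against 17.2, 16.7 and 17 FPKM (log2 difference -0.86, SE 0.0373, adjusted p 2.02e-05). Cd8b1 and Cd8a, the chains of CD8, differed by -0.91 and -0.76, the granzyme gene Gzma by -0.80 and the chemokine gene Ccl5 by -0.68 (adjusted p 0.000156, 0.000134, 0.00067 and 0.000939). The gate removes CD3e-positive cells. In the monocyte and dendritic cell list and in the marrow macrophage list 3 genes were higher and 4 lower, of 16 and 17 tested, with medians of -0.06 and -0.05. Without immunoglobulin genes in the scaling 1 was higher in each, 9 and 8 were lower, and the medians were -0.21 and -0.16.

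Genes of stem and progenitor cells themselves were divided. Of 23 surface marker genes tested, 9 were higher and 6 lower (6 and 8 without immunoglobulin genes in the scaling), and none was called. Their median was 0.02, which quantile normalization, rescaling without immunoglobulin genes and the length correction turned slightly negative. Kit was at 17.9, 19.1 and 17.4 FPKM in Ab_IR and 18, 17.8 and 17.9 FPKM in L_IR, overlapping, with a difference of 0.02 (adjusted p 0.759, 95% interval -0.0814 to 0.118), but it passed as higher with the length trend taken out (0.14, adjusted p 0.029). Ly6a was lower (difference -0.25, adjusted p 0.0101). Flt3, which the gate excludes, was higher by 0.31 (adjusted p 0.00183), and Cd34 passed at 0.14 (adjusted p 0.0389) but stood at -0.00095 without immunoglobulin genes in the scaling. The tetraspanin genes Cd63 (0.67) and Cd9 (0.50) and the homing receptor gene Cxcr4 (0.40) were higher, and Thy1 (-0.48), which T cells also express, was lower (adjusted p 0.000111, 0.00058, 0.000196 and 0.00074).

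Of 23 stem and progenitor transcription factors tested, 9 were higher and 1 lower, with a median of 0.10 that became -0.04 on the scale without immunoglobulin genes, where all genes have -0.11. The higher ones included Nfe2 (0.47) and Gata2 (0.26), which megakaryocyte, erythroid and basophil cells also use, and Myc (0.43), with adjusted p 0.000224, 0.00226 and 0.001, and Gata2 did not pass on that scale (0.12). Immediate early genes, the quick transcriptional response to stimulation and to tissue handling, were higher in 19 of 26 cases and lower in 1, with a median of 0.30 (12 and 3 without immunoglobulin genes in the scaling). The call among them was Klf2, a factor of quiescence and trafficking (chromosome 8, 72319033 to 72321656, plus strand), at 60.8, 61.7 and 72.2 FPKM in Ab_IR and 28.7, 25.5 and 23.6 FPKM in L_IR (log2 difference 1.29, SE 0.0878, adjusted p 9.32e-05). Every Ab_IR library was at more than 2 times every L_IR library. Fos was at 382, 386 and 364 FPKM against 263, 259 and 260.2 FPKM (0.53, adjusted p 9.48e-05), and Ier3 (0.74), Klf6 (0.62) and Nr4a1 (0.57) were also higher.

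Outside the lineage genes, translation and chromatin genes went in opposite directions. Of 88 cytosolic ribosomal protein genes tested, 62 were higher in Ab_IR, 1 was lower and none was called, with a median of 0.28. Rescaling without immunoglobulin genes left 26 higher and 2 lower, with a median of 0.13, and with all 12 libraries in 1 fit 10 were higher and Rpl26 and Rplp2 did not pass (adjusted p 0.116 and 0.392). Rpl26 had the largest difference, at 115, 118 and 117 FPKM against 80.4, 77.9 and 78.8 FPKM (log2 difference 0.56, SE 0.0326, adjusted p 4.81e-05), and Rplp2 and Rps3a1 differed by 0.47 and 0.39. Mitochondrial ribosomal protein genes were higher in 23 of 78 cases with none lower (median 0.10), and complex I genes in 22 of 53 cases with 3 lower. On the scale without immunoglobulin genes 3 were higher and 7 lower in the first list and 5 higher and 6 lower in the second. All genes tested there, 11976 in number, had 782 higher and 4062 lower. The nuclear subunit gene Ndufa13 was at 0.44, while the mitochondrially encoded mt-Nd4l stood at 412, 443 and 477 FPKM in Ab_IR and 726, 790.3 and 780.0 FPKM in L_IR (log2 difference -0.79, SE 0.0616, adjusted p 0.000163).

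DNA methylation and chromatin genes were lower in 15 of 27 cases and higher in 1, with a median of -0.21. Kmt2a, a histone H3 lysine methyltransferase needed by HSCs, was at 3.33, 3.94 and 3.79 FPKM in Ab_IR and 7.4, 7.09 and 7.29 FPKM in L_IR (log2 difference -0.82, SE 0.0589, adjusted p 0.000119). Tet2, which oxidizes methylcytosine, had 1.62, 1.79 and 1.78 FPKM against 3.33, 3.15 and 3.68 FPKM (-0.68, adjusted p 0.000365), and the chromatin remodeller gene Arid1a differed by -0.47 (adjusted p 0.000571). These are long messages, and the contrast moved with length over all genes. Genes were ranked by exon length and split into 5 bins of nearly equal size. The median difference was 0.08 in the bin of the shortest genes (11 to 1667 bases), 0.10 in the next bin (1668 to 3122 bases) and -0.13 in the bin of the longest (6954 to 41324 bases). In that last bin 4.07% of genes were higher and 43.7% lower, against 31.2% and 6.42% in the bin of 1668 to 3122 bases. After each library's trend with exon length was removed, Kmt2a, Tet2 and Arid1a differed by -0.57, -0.44 and -0.30, and the chromatin median was -0.12 with 11 genes lower. The cytosolic ribosome median became 0.18 with 42 genes higher. The secondary granule and eosinophil medians were 1.17 and 0.99, with 11 and 5 called, Ear6 falling under the fold threshold (0.99).

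**Figure D4:**
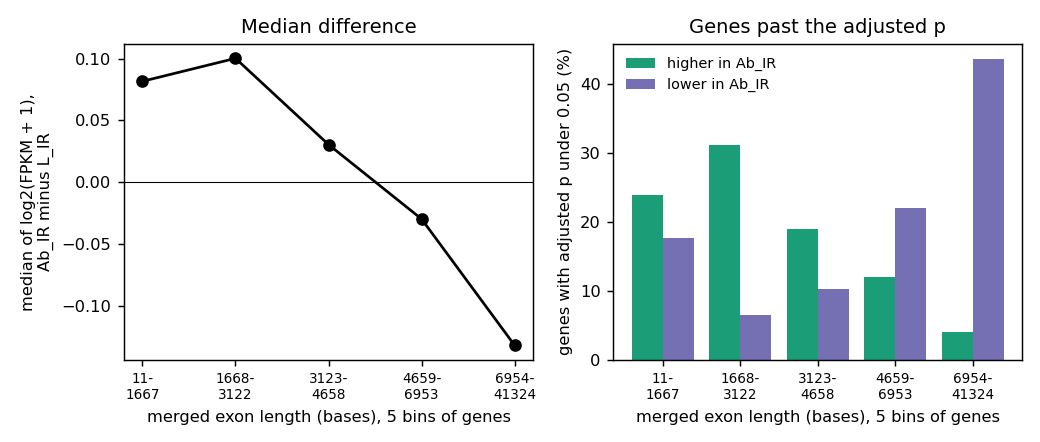
Genes with a known exon length were split by it into 5 bins, from 11 to 1667 bases at the left to 6954 to 41324 bases at the right. The left panel gives the median difference Ab_IR minus L_IR in log2(FPKM + 1), from 0.10 at 1668 to 3122 bases to -0.13 in the longest bin, and the right panel the percentage of genes past an adjusted p of 0.05 in each direction, with 43.7% lower in the longest bin.

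Genes of the IGF1 receptor, AKT and mTOR route, the signalling axis the study follows, were lower in 15 of 42 cases and higher in 6, with a median of -0.10. Mtor was at 4.96, 5.76 and 4.81 FPKM in Ab_IR and 8.2, 7.6 and 8.15 FPKM in L_IR (log2 difference -0.54, SE 0.0667, adjusted p 0.00104), its partner gene Rptor differed by -0.43 and the inhibitor gene Tsc1 by -0.44 (adjusted p 0.00247 and 0.00249). With the length trend taken out, Mtor, Rptor and Tsc1 differed by -0.40, -0.23 and -0.27, Igf1r, the receptor gene, went from -0.19 to 0.05, and the median of the list was -0.01 with 9 lower and 4 higher. Without immunoglobulin genes in the scaling 22 were lower and 1 higher. Igf1 and the cystine transporter gene Slc7a11 did not reach the expression filter.

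Iron and peroxide genes bear on ferroptosis, an iron-dependent form of cell death that the study examined. In the ferroptosis and peroxide list 19 of 36 were higher and 2 lower, with a median of 0.16, against 9 higher and 4 lower with a median of 0.02 without immunoglobulin genes in the scaling. The peroxiredoxin genes Prdx2 (151, 154 and 144 FPKM against 105, 104 and 105 FPKM, 0.51, adjusted p 0.000126) and Prdx5 (0.51) led with the platelet lipoxygenase gene Alox12 (0.67). Prdx2 is an abundant red cell protein and Alox12 a platelet enzyme, and the erythroid and platelet lists above were higher in the same libraries. Their part in these values was not tested. Gpx4, which reduces lipid peroxides, had 111, 106 and 99.9 FPKM in Ab_IR and 83.1, 81.6 and 83.01 FPKM in L_IR (log2 difference 0.35, SE 0.0439, adjusted p 0.00116). Of 21 iron genes, 7 were higher and 1 lower, against 1 higher and 5 lower without immunoglobulin genes in the scaling. Fth1, the ferritin heavy chain, was 1.19-fold higher (0.25, adjusted p 0.00781), and did not pass without immunoglobulin genes in the scaling (0.11).

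Cell cycle genes shifted modestly. S phase genes were higher in 18 of 48 cases and lower in 2 (median 0.11), led by E2f2 (0.53), an S phase factor, with the replication clamp gene Pcna at 0.24. Mitosis and G2/M genes were higher in 17 of 56 and lower in 7. Without immunoglobulin genes in the scaling 3 were higher and 10 lower in S phase, and 6 higher and 17 lower in mitosis. In that setting 782 of all 11976 genes tested were higher and 4062 lower. Mki67, the proliferation marker Ki-67 and a long message, was at 88.2, 88.9 and 83.9 FPKM in Ab_IR against 101, 102 and 107 FPKM in L_IR (-0.24, adjusted p 0.00366), and did not pass with the length trend taken out (-0.10). The D cyclins split, with Ccnd3 higher by 0.53 and Ccnd2 lower (difference -0.54, adjusted p 0.000209 and 0.000133). The inhibitor gene Cdkn2d was higher by 0.60 and the p53 target Cdkn1a, at 17.2, 16.8 and 16.3 FPKM against 20.5, 20.6 and 18.7 FPKM, lower (difference -0.24, adjusted p 0.00814). Of 30 p53 targets 5 were higher and 6 lower, near the 18.2% higher and 19.8% lower of all genes tested. Without immunoglobulin genes in the scaling 3 were higher and 12 lower. The 2 targets with the largest differences, the stress gene Trp53inp1 (-0.59) and the sulfatase gene Sulf2 (-0.74), were both lower.

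Interferon genes were mixed. Of 60 type I interferon-stimulated genes 11 were higher and 12 lower (median -0.06), near the 18.2% higher and 19.8% lower of all genes tested. Of 15 interferon-induced GTPases 7 were lower and none higher (median -0.24). The GTPase genes Gbp9 (-0.77) and Gvin1 (-0.71) led. Gvin1 was at 5.94, 5.25 and 5.45 FPKM in Ab_IR and 9.47, 9.78 and 9.94 FPKM in L_IR (adjusted p 0.000118). Nlrc5, the activator of MHC class I genes, was lower (difference -0.65, adjusted p 0.000195), whereas 10 of 20 MHC class I and immunoproteasome genes were higher and 3 lower. None of these 20 was higher without immunoglobulin genes in the scaling, where 4 of the type I genes were higher and 26 lower.

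The remaining lists were smaller in their differences or mixed. DNA repair genes were lower in 11 of 40 cases and higher in 3, genes of endoplasmic reticulum folding lower in 11 of 30 and higher in 4, and bacterial sensing genes lower in 12 of 37 and higher in 5. MHC class II genes were lower in 4 of 10 and higher in 2. Glycolysis, TCA cycle, heat shock, proteasome, cholesterol, autophagy, BCL2 family, cytokine, cytokine receptor and interferon signalling lists had medians between -0.06 and 0.06, or between -0.19 and -0.09 without immunoglobulin genes in the scaling, and no called gene. Across all genes 18.2% were higher and 19.8% lower. The heart muscle list had 0 of 17 genes tested.

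A few calls belong to none of these lists. Lrg1, a secreted glycoprotein made by neutrophils, was at 36.4, 41.7 and 37.8 FPKM in Ab_IR and 17.03, 15.2 and 15.4 FPKM in L_IR (log2 difference 1.23, SE 0.0641, adjusted p 3.19e-05), and the neutrophil granule gene Olfm4 differed by 1.19 and the acute phase gene Orm1 by 1.35. The formyl peptide receptor gene Fpr2 (1.19) and the protease gene Asprv1 (1.02) were called at under 10 FPKM. The linker histone gene H1f5 had 8.24, 8.2 and 9.12 FPKM against 4.27, 2.9 and 2.39 FPKM (1.21, adjusted p 0.00105). Less steady were H2ac15, a histone H2A gene, at 3.88, 5.76 and 10.6 FPKM in Ab_IR, and Sarnp, an mRNA export gene, at 22.7, 9.7 and 25.9 FPKM. Both spread more than 2-fold within Ab_IR, and each call held in only 2 and 1 of the 6 fits that leave out a library. Among lower calls outside the immunoglobulin and predicted genes, mt-Tk, the mitochondrial lysine tRNA gene (mitochondrial genome, 7700 to 7764, plus strand), was the one at 10 FPKM or more, at 11.8, 11.4 and 11.9 FPKM in Ab_IR and 25.98, 23.7 and 28.6 FPKM in L_IR (log2 difference -1.09, SE 0.06604, adjusted p 5.46e-05). With the length trend taken out it differed by -0.77 and was not called. Vasn, a transmembrane gene, was at 0.58, 1.14 and 1.04 FPKM against 3.88, 3.37 and 3.29 FPKM (-1.24, adjusted p 0.00043).

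Leaving out each library in turn kept 27 of the 36 higher calls and 9 of the 29 lower calls in all 6 fits. The 11 secondary granule, 6 eosinophil and 2 alpha globin calls and those of Car1, Dntt and Klf2 were among the 27. One library stood apart on a few transcripts: Ab_IR replicate 3 had 41.95 FPKM of Rn7sk, the 7SK small nuclear RNA, against at most 5.53 FPKM in the other 5, and 131 FPKM of Lars2, the mitochondrial leucyl-tRNA synthetase gene, against at most 29.7. Neither gene passed (adjusted p 0.133 and 0.304). An entry named CT010467 was at 11053 FPKM in that library against at most 2252 in the other 5, and did not pass (adjusted p 0.226). Another entry of that name was at 87.2, 104.5 and 199 FPKM in Ab_IR and 66.7, 54.1 and 45.8 FPKM in L_IR. It was called higher (1.14, adjusted p 0.0201), but in only 3 of the 6 fits that leave out a library. The numerically greatest difference of all, that of the pseudogene Rps18-ps6 (5.95), rested on a listing at 0 in 2 of the 3 L_IR libraries beside 407 FPKM in the third and did not pass (adjusted p 0.0658).

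Set beside the other groups of the series, most genes called had Ctrl nearer to Ab_IR than to L_IR. By mean log2(FPKM + 1), Ctrl was nearer to Ab_IR than to L_IR for 33 of the 36 genes called higher (91.7%) and 25 of the 29 called lower (86.2%), against 48.6% of all genes tested. For 12 of the 29 called lower (41.4%) Ctrl was below both groups. Among genes past the adjusted p alone the shares were 50.5% and 48.2%, close to that background. Ltf was at 155 to 157 FPKM in Ctrl beside 160.0 to 169 in Ab_IR and 31.6 to 33.2 in L_IR. Dntt was at 12.4 to 14.3 FPKM in Ctrl, 12.3 to 13.01 in Ab_IR and 4.2 to 4.61 in L_IR. All 20 secondary granule genes, 9 of 11 eosinophil genes and 13 of 15 globin and heme genes had Ctrl nearer to Ab_IR. For the immunoglobulin genes Ctrl was below both groups in 198 of 236 cases (83.9%), beside 35.6% of all genes tested, with Igkc at 9409 to 12526 FPKM.

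The IR libraries split these lineage groups. All 11 eosinophil and all 15 globin and heme genes were lower in IR than in both Ab_IR and L_IR, as were 21 of 23 erythroid genes, beside 50.7% of all genes tested. Prg2 was at 236 to 246 FPKM in IR and Car1 at 35.7 to 37.3 FPKM. Secondary granule genes were higher in IR than in both groups in 15 of 20 cases, beside 32.7% of all genes tested, with Chil3 at 729.7 to 753 FPKM and Ltf at 287 to 290.4 FPKM. L_IR was thus the lowest of the 4 groups for Ltf, Lcn2, Chil3 and Cd177, whereas IR was the lowest for Prg2, Ear1 and the globins. The IR libraries and Ctrl replicates 2 and 3 carry the heart transcript and Ab_IR and L_IR do not, so a group and that difference between libraries cannot be told apart here. Ctrl replicate 1, which lacks it, listed 44.1% of genes at 0 where the other 11 libraries listed 24.6% to 27.3%.

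**Figure D5:**
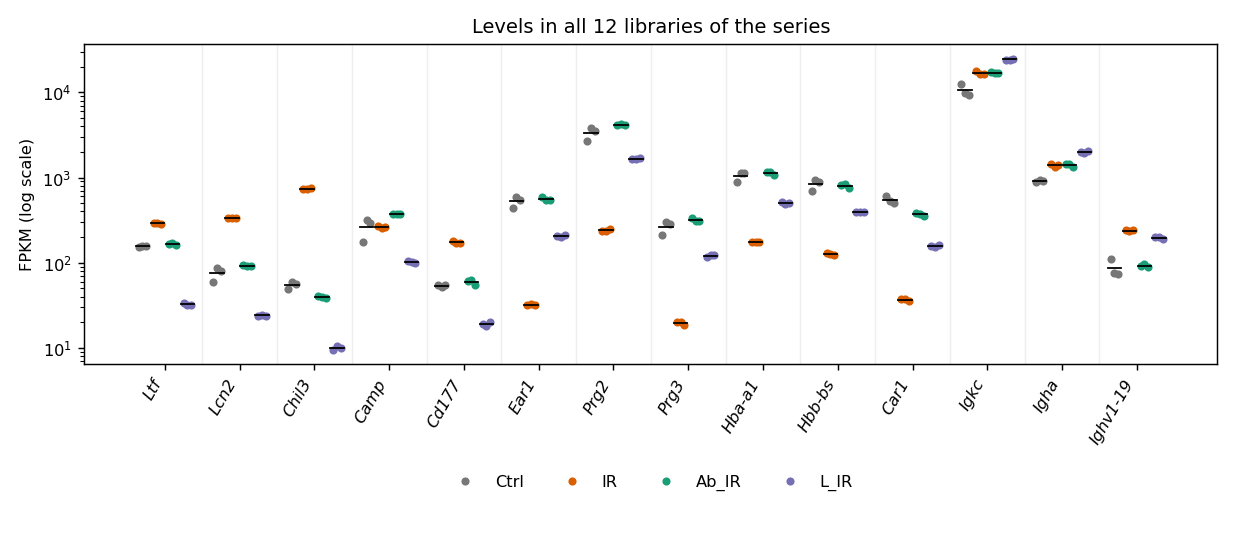
Dots are FPKM on a log axis in each library of Ctrl, IR, Ab_IR and L_IR (n = 3 each) for 14 genes, and bars are group means. L_IR is the lowest group for Ltf, Lcn2, Chil3, Camp and Cd177 and the highest for Igkc and Igha, and IR is the lowest for the eosinophil genes, the globins and Car1.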

How the data were processed

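RNA-seq libraries of cells sorted as HSCs were grouped by their titles, 3 in each of 4 groups. The authors deposited 1 value per gene and library (31340 entries, 31272 gene names). The files name no unit. The deposited values were read as FPKM, made by the authors from aligned reads and scaled to transcript length and library size, because values times exon length sum to nearly the same total in each library. The submitters' processing notes name fastp, HISAT2, StringTie, GRCm38 and mm10, while the methods of the study name RSEM, and versions are not given in the sources used here. Genes reaching 1 FPKM in 3 or more of the 6 libraries were compared on log2(FPKM + 1) with limma 3.58.1 (R 4.3.3; lmFit and eBayes with trend, Benjamini-Hochberg adjustment over all genes tested), in place of a count test, and called at an adjusted p under 0.05 and an absolute log2 difference above 1. On simulated data, 98% to 100% of 200 genes changed by 1.5 on the log2 scale were recovered, with at most 3 other calls. The changed genes had a mean log2(FPKM + 1) above 3 and the noise was normal and independent. The recovery of lower genes and of smaller changes was not tested.

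Gene coordinates and exon lengths are those of GENCODE M21 on GRCm38, matched by name. Lists were described by counts and medians, with no set test. Named genes were the 12 largest called differences in each direction at a mean of at least 10 FPKM, without predicted or immunoglobulin genes and without overlap, the 3 largest differences and 2 highest levels of each list, and a panel of sort markers and study genes. Dntt, Klf2 and other list leaders fall under this rule. Genes chosen after their values were seen are Retnlg, Mmp9, Ly6g, S100a8, the other Ear genes, Epx, Siglecf, Ccr3, Il5ra, Alox15, Hbb-bt, Alas2, Alad, Lrg1, Olfm4, Orm1, Fpr2, Asprv1, H1f5, H2ac15, Sarnp, Fcer1a, Cpa3, Gzmb, Cd8a, Nr4a1, Gata2, Spib, Tubb1, Pf4, Itga2b, Pou2af1, Jchain, Vasn, Rn7sk, Lars2, CT010467, Rps18-ps6 and the variable and IgG genes. The groups compared, the lists and the tests were chosen with earlier results of these data known. Alternatives were the pseudocount, the filter, the scaling, the fit, the replicate block and each library left out. The length correction, and the fits without 1 library on an unchanged gene set, were chosen after seeing the data.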

Additional observations from a re-analysis of the deposited data

How the results depend on the processing

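The 65 calls (36 higher and 29 lower in Ab_IR) depended most on thresholds and on low genes. A pseudocount of 0.1 gave 165 calls, 62 higher and 103 lower, and dropping the fold threshold gave 4628, 2218 higher and 2410 lower. A mean of 10 FPKM or more as the filter gave 40 calls, of which 14 were lower, and taking out the trend against exon length left 18 lower calls. Leaving out each library in turn gave 55 to 75 calls, 31 to 42 higher and 24 to 38 lower, and 60 to 75, 31 to 42 and 29 to 38 on an unchanged gene set. The remaining settings (quantile normalization, median scaling, no filter, no trend in limma, all 12 libraries in 1 fit, repeated names summed, no immunoglobulin genes) gave 50 to 68 calls. Of the 65 calls, 37 were among the 50 without immunoglobulin genes, 58 among the 68 under quantile normalization and 43 among the 48 with the length trend taken out.

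Genes past the adjusted p alone were fewer with all 12 libraries in 1 fit, 1026 higher and 1439 lower. In that fit 3 of 12 primary granule genes were higher, 4 of 23 surface markers higher and 1 lower, 9 of 23 platelet genes higher, 6 of 36 ferroptosis genes higher, 1 of 78 mitochondrial ribosome genes and 0 of 53 complex I genes higher, and 8 of 42 mTOR route and 9 of 27 chromatin genes lower. Srgn, Prtn3, S100a8, Cd79a, Ccl5, Cd9, Thy1, Ly6a, Cd34, Mki67, Gpx4, Prdx5, Rpl26, Rplp2, Ndufa13, Pcna, Ccr3, Il5ra, Fcer1a and Sarnp no longer passed there, and the pseudogene Rps18-ps6 did (adjusted p 0.04). The secondary granule, eosinophil and globin lists had 18 of 20, 9 of 11 and 14 of 15 higher, with 11, 6 and 3 called.

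The deviations of same-numbered libraries from their group means correlated at -0.267, -0.031 and -0.268, and those of differently numbered libraries at -0.0502 to 0.284. Such correlations cannot show whether same-numbered libraries were prepared together. With the numbers as a replicate block, 66 genes were called, 37 higher and 29 lower.

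Differences near 0 changed sign. The log2 difference of Mpo was 0.0336 without Ab_IR replicate 3 and 0.0122 without L_IR replicate 3, within a range of -0.0529 to 0.0336 over the libraries left out, also on an unchanged gene set. The log2 difference of Kit was -0.00454 under quantile normalization, -0.12 without immunoglobulin genes in the scaling and -0.0160 without Ab_IR replicate 2, within a range of -0.0160 to 0.0455, and Cd34 was at -0.00095 without immunoglobulin genes. Igkc, the highest value of every library, has a difference of 0 under quantile normalization by construction. FPKM hold no counts, so how far depth limits the low genes is unknown.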
